A study of Rattus norvegicus and Mus musculus with 24 samples.

Results

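The cytokine gene IL24, the receptor genes IL20RA, IL20RB and IL22RA1, the transcription factor gene STAT3, its feedback inhibitor SOCS3, the shared receptor gene IL6ST, the receptor gene OSMR and the cytokine genes LIF and IL11 were followed in the kidneys of Ctns knockout (KO) mice and rats. These 10 genes were taken by symbol from the gene tables, where they made up 10 of 17376 symbols in mice and 10 of 14931 in rats, and all 10 were found in both tables. They were chosen by their measured expression in KO against wild-type (WT) animals, also within 2 ranges of rat numbers, so their genotype differences are given here as a description with standard errors and without a test. The same holds for the change of a genotype difference between the ranges and for counts of members past a threshold. Tests of members were kept for the number ranges within WT rats, except for IL24, which had no read in any WT rat. Range differences within KO rats rest on KO levels that the choice also used, so they are given as a description.

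Ctns encodes cystinosin, the transporter that exports cystine from lysosomes, and its loss causes the storage disease cystinosis. Bulk RNA sequencing covered 4 Ctns KO and 4 WT mice of the C57BL/6 background and 8 Ctns KO and 8 WT rats of the Sprague-Dawley background, with WT littermates as controls and 1 library per animal. The labels call the tissue kidney cortex but also name proximal tubule cells and microdissected tubules, and they give neither age nor treatment. They do not say either what the sample numbers stand for, which fell into rats 17 to 24 and rats 25 to 32, each with 4 KO and 4 WT animals. Because a library mixes cell types, fewer cells of a type and less RNA per cell cannot be told apart.

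Library totals ran from 19309449 to 44449859 reads in mice and from 24684097 to 40629873 reads in rats. Mouse levels are the deposited scaled values, on which 1 is the upper quartile of a library, and rat levels are CPM (reads scaled to a common total) on normalized library sizes. CTNS itself was at 0.332 ± 0.0102 (SD, n = 4) in KO and 0.918 ± 0.0868 in WT mice, without overlap, and at 19.1 ± 1.86 CPM (SD, n = 8) in KO and 22.3 ± 2.98 CPM in WT rats, with overlap, so in rats its reads do not separate the genotypes. Markers of the proximal tubule were present in every group, and so were markers of other segments. The summed level of 4 thick ascending limb genes was 119 to 147 in WT mice, where that of 8 proximal tubule genes was 265 to 360.

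IL24 belongs to the IL-10 family and, like its relatives IL19 and IL20, signals through a receptor made of IL20RA and IL20RB. IL24 and IL20 can also use IL22RA1 paired with IL20RB. LIF and IL11 belong to the IL-6 family, whose receptors share the subunit gp130, encoded by IL6ST, and OSMR pairs with gp130 to bind oncostatin M. Both receptor families act through Janus kinases on STAT3, which enters the nucleus and switches on genes that include SOCS3, whose product in turn blocks the receptor. In the kidney these cytokines are known from tubular injury and inflammation.

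IL24 is the member that was read in KO rats only, and the bases in front of it are shown. In the mouse (mm10) Il24 lies on chromosome 1 at chr1:130882074-130887454 on the minus strand, next to Il20, Il19 and Il10. In the rat RefSeq annotation the same 3 genes follow Il24 in that order. The rat sequence is from RefSeq (GRCr8, chr13:44910761-44911010, minus strand) and gives the 250 bases before the start of the gene, 5′ to 3′, with capitals on the letters that match TTCNNNGAA, the core recognised by STAT proteins.
Il24: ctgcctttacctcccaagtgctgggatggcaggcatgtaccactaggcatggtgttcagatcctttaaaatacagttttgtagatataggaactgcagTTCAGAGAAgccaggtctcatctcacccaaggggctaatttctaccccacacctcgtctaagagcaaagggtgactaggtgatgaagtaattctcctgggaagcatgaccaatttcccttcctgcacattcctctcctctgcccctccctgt
The match began at position -152 from the start. The motif reads the same on both strands and was present in 7.67% of 33469 rat promoters. Of the 8 members found in that promoter table, IL24 was the member with a match, whereas the AP-1 letters TGANTCA (6.34% of all promoters) were present in OSMR and IL11, and TATAAA on either strand (12.9% of all promoters) in none of the 8. A match of letters is not a binding site, and no binding was measured.

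IL24 was read in every KO rat and in no WT rat. In KO rats 18, 20, 22 and 24 it had 13, 19, 16 and 25 reads, or 0.415, 0.644, 0.563 and 0.772 CPM. In KO rats 26, 28, 30 and 32 it had 130, 208, 154 and 91 reads, or 4.04, 7.09, 4.73 and 3.68 CPM. The genotypes therefore did not overlap in either number range, and the KO rats of the higher numbers stood above those of the lower numbers. Each of the 8 WT rats had 0 reads, which allows up to 3 reads per library, and against that floor the mean KO level was at least 27.1-fold higher over all rats. The bound was at least 6.05-fold in rats 17 to 24 and at least 47.3-fold in rats 25 to 32.

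Within the KO rats the level of IL24 was 0.599 ± 0.149 CPM (SD, n = 4) in rats 17 to 24 and 4.89 ± 1.53 CPM in rats 25 to 32. The difference was 3.02 on the log2 scale (SE 0.28) and is given without a test. With 0 reads in the WT rats, it rests on the same KO levels as the genotype differences that chose IL24. The WT rats hold no reads of IL24, so neither a range difference in WT nor the interaction with genotype could be estimated for it. What sets the 2 number ranges apart is not given in the labels, so the range difference has no named condition behind it.

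**Figure D1:**
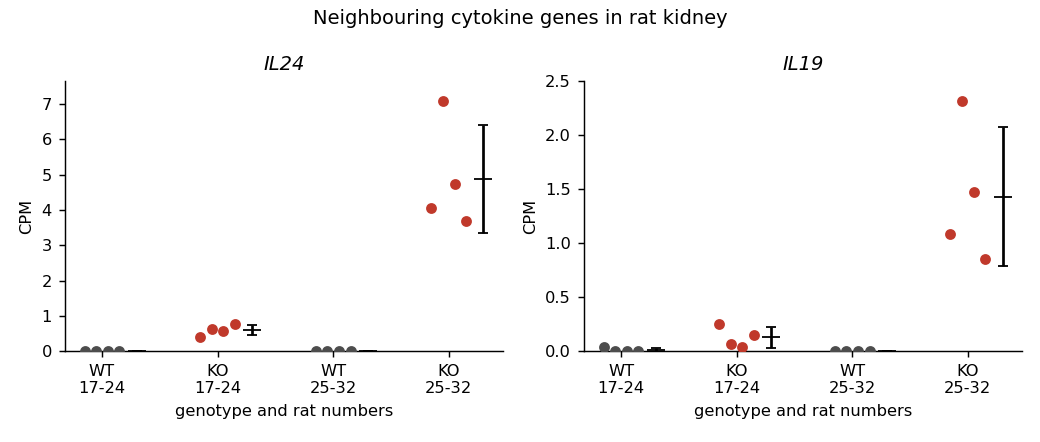
Levels of IL24 (left) and of its neighbour IL19 (right) in CPM on a linear axis for each rat, by genotype and number range; points are animals and the line with bars gives mean and SD (n = 4). IL24 is at 0 in all 8 WT rats, at 0.415 to 0.772 CPM in KO rats 17 to 24 and at 3.68 to 7.09 CPM in KO rats 25 to 32.

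In mice IL24 was not detectable at this depth, with 0 reads in all 4 KO and all 4 WT libraries, each of which allows up to 3 reads.

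LIF, a cytokine that acts through its own receptor and gp130, was higher in KO animals of both species. The KO mice 3, 5, 6 and 8 had scaled values of 0.0684, 0.0832, 0.0816 and 0.0938, against 0.0187, 0.0104, 0.0106 and 0.00889 in WT mice 1, 2, 4 and 7. The lowest KO value lay above the highest WT value, and these levels rest on 65 to 157 reads in KO and 9 to 29 in WT. The log2 difference was 2.06 (SE 0.16, n = 4 per group) on the log2(value + 0.01) scale, which understates low genes, and 2.76 on the recovered reads in edgeR.

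In rats LIF stood at 0.894, 0.644, 0.599 and 0.988 CPM in KO rats 18, 20, 22 and 24 and at 1.68, 1.43, 2.03 and 1.30 CPM in KO rats 26, 28, 30 and 32. The WT rats ranged from 0.121 to 0.408 CPM with a median of 0.335, on 3 to 13 reads each. All KO rats lay above all WT rats. The log2 difference was 1.56 (SE 0.33) in rats 17 to 24 and 2.15 (SE 0.23) in rats 25 to 32. Like IL24, LIF was higher in the KO rats of the higher numbers, by 1.03 on the log2 scale (SE 0.23), given without a test. The 2 genotype differences were 0.59 apart (SE 0.41).

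IL11, a cytokine that signals through its own receptor and gp130, was close to the limit of detection. It had 4 to 10 reads in KO mice and 2 to 11 in WT mice, and 2 to 10 reads in KO rats and 0 to 6 in WT rats. The genotypes overlapped in both species, and IL11 did not pass the filter on low values in either.

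IL20RA, a subunit of the receptor for IL24, IL19 and IL20, was lower in KO rats. It stood at 5.56, 7.32, 4.44 and 6.67 CPM in KO rats 18 to 24 and at 7.93, 9.05, 8.15 and 8.19 CPM in WT rats 17 to 23. In the higher numbers the KO rats 26 to 32 had 6.41, 5.72, 4.36 and 5.34 CPM and the WT rats 25 to 31 ranged from 9.22 to 11.3 CPM with a median of 10.5. The genotypes did not overlap in either range, with a log2 difference of -0.47 (SE 0.14) in rats 17 to 24 and -0.92 (SE 0.13) in rats 25 to 32. The difference between ranges was -0.14 in KO rats (SE 0.14). In WT rats it was 0.31 and did not pass (edgeR adjusted p = 0.118). The 2 genotype differences were -0.45 apart (SE 0.20). In mice IL20RA had 0 to 3 reads per library, 13 in all, and was not tested.

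IL20RB, the subunit that both receptors for IL24 share, was read at 0 to 9 reads in KO rats and 0 to 5 in WT rats, with 33 and 20 reads summed over the 8 rats of each genotype. It did not pass the filter in rats, and the genotypes overlapped. In mice it had 17 to 55 reads in KO and 31 to 70 in WT animals, with scaled values of 0.0251 ± 0.0101 and 0.0340 ± 0.00380 (SD, n = 4 each) that overlapped.

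IL22RA1, which pairs with IL20RB and in the IL22 receptor with IL10RB, overlapped between genotypes in every comparison. The level was 1.82 ± 0.634 CPM (SD, n = 8) in KO rats and 2.49 ± 0.471 CPM in WT rats, a log2 difference of -0.44 (SE 0.20). The lowest animal was KO rat 28 at 0.818 CPM. In mice the scaled value was 0.0902 ± 0.0160 in KO and 0.115 ± 0.0371 in WT (SD, n = 4 each).

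OSMR, the specific subunit of the oncostatin M receptor, was the receptor gene that stood higher in KO animals of both species. The scaled values were 0.449, 0.462, 0.464 and 0.426 in KO mice and 0.261, 0.322, 0.313 and 0.235 in WT mice, a log2 difference of 0.66 (SE 0.10). In KO rats OSMR ran from 7.89 to 14.4 CPM with a median of 10.3, and in WT rats from 3.62 to 5.66 CPM with a median of 4.66. The groups overlapped in neither species. The genotype difference was 1.09 on the log2 scale (SE 0.13) in rats 17 to 24 and 1.30 (SE 0.20) in rats 25 to 32, which were 0.21 apart (SE 0.24). Among the KO rats the range difference was 0.18 (SE 0.16).

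IL6ST, the gene of the shared subunit gp130, differed little. Its scaled value was 4.78 ± 0.158 in KO mice and 4.62 ± 0.220 in WT mice (SD, n = 4 each), with overlap. In rats it was 181 ± 14.7 CPM in KO and 157 ± 18.1 CPM in WT (SD, n = 8 each), a log2 difference of 0.20 (SE 0.07), again with overlap. It passed the threshold over all rats but in only 12 of 22 settings, and leaving out any of KO rats 20, 22, 24 and 30 or WT rats 17, 19, 25, 29 and 31 ended the call. Its range difference in WT rats was -0.19 (edgeR adjusted p = 0.0996) and became -0.27 without WT rat 27 (edgeR adjusted p = 0.0140).

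STAT3, the transcription factor on which both receptor families converge, was higher in KO animals of both species. The KO mice had scaled values of 2.88, 3.43, 3.05 and 2.89 and the WT mice 2.61, 2.17, 2.62 and 2.16, a log2 difference of 0.36 (SE 0.08). In rats STAT3 ran from 207 to 251 CPM in KO (median 227) and from 132 to 185 CPM in WT (median 164). The groups overlapped in neither species. The log2 difference was 0.35 (SE 0.06) in rats 17 to 24 and 0.64 (SE 0.08) in rats 25 to 32. These genotype differences were 0.29 apart (SE 0.10). In mice the STAT3 difference passed the threshold in 10 of 14 settings and not without mouse KO 5 or KO 6, nor without a filter with a pseudocount of 0.01 or 1.

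SOCS3, which STAT3 induces and which inhibits signaling through gp130, was higher in KO animals of both species. In mice the scaled values were 0.158, 0.157, 0.141 and 0.137 in KO and 0.0765, 0.0630, 0.0888 and 0.0497 in WT, a log2 difference of 1.02 (SE 0.15). The KO rats 18, 20, 22 and 24 had 2.49, 4.37, 5.14 and 3.77 CPM, and the WT rats 17, 19, 21 and 23 had 1.73, 2.33, 1.94 and 2.07 CPM. KO rat 18 thus lay just above the highest of these WT rats. The KO rats 26, 28, 30 and 32 had 7.56, 10.9, 10.2 and 5.67 CPM, and the WT rats 25, 27, 29 and 31 ranged from 1.04 to 2.37 CPM with a median of 1.48.

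The SOCS3 genotype difference was 0.96 on the log2 scale (SE 0.21) in rats 17 to 24 and 2.43 (SE 0.27) in rats 25 to 32, and the difference between them was 1.47 (SE 0.36). Within KO rats SOCS3 was higher in rats 25 to 32 by 1.12 (SE 0.24), given without a test. Within WT rats the range difference was -0.35 (edgeR adjusted p = 0.414).

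**Figure D2:**
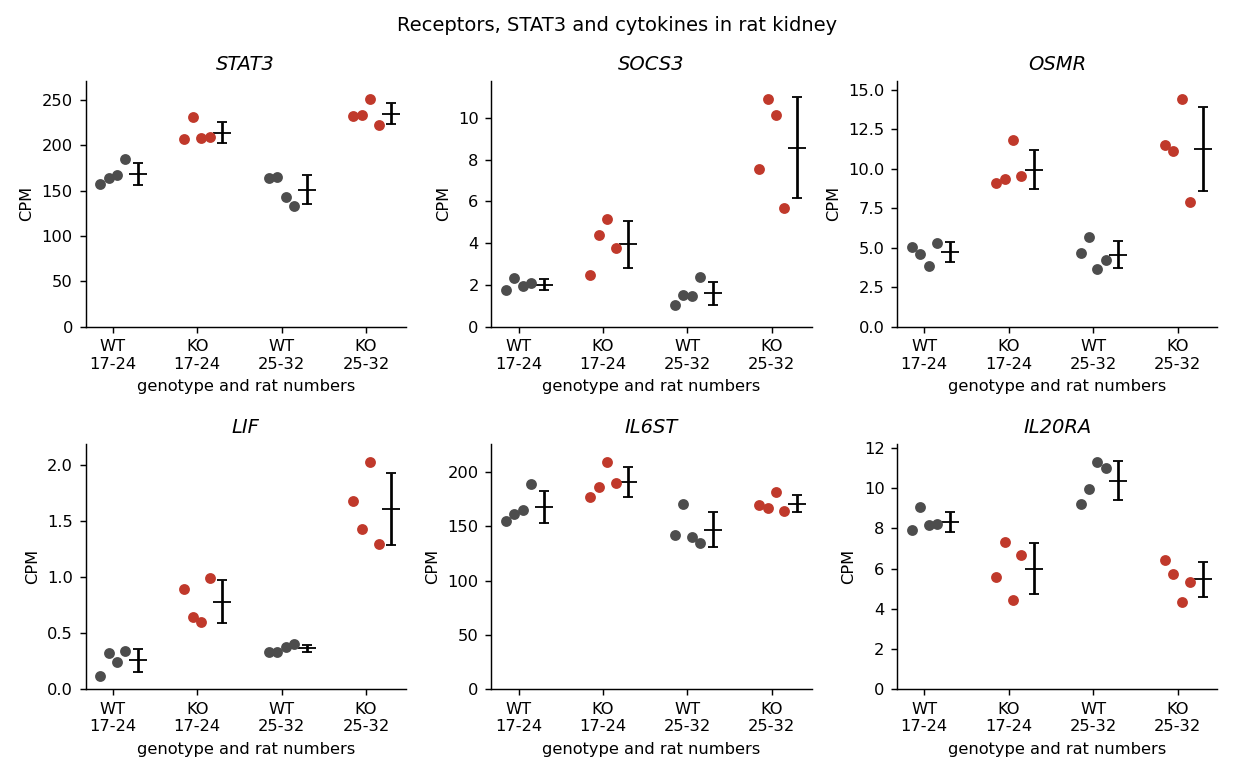
Levels of 6 members in CPM on a linear axis for each rat, by genotype and number range; points are animals and the line with bars gives mean and SD (n = 4). STAT3, SOCS3, OSMR and LIF lie higher and IL20RA lower in KO rats without overlap within a range, whereas IL6ST overlaps; every KO rat from 25 to 32 lies above every KO rat from 17 to 24 for SOCS3 and LIF.

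**Figure D3:**
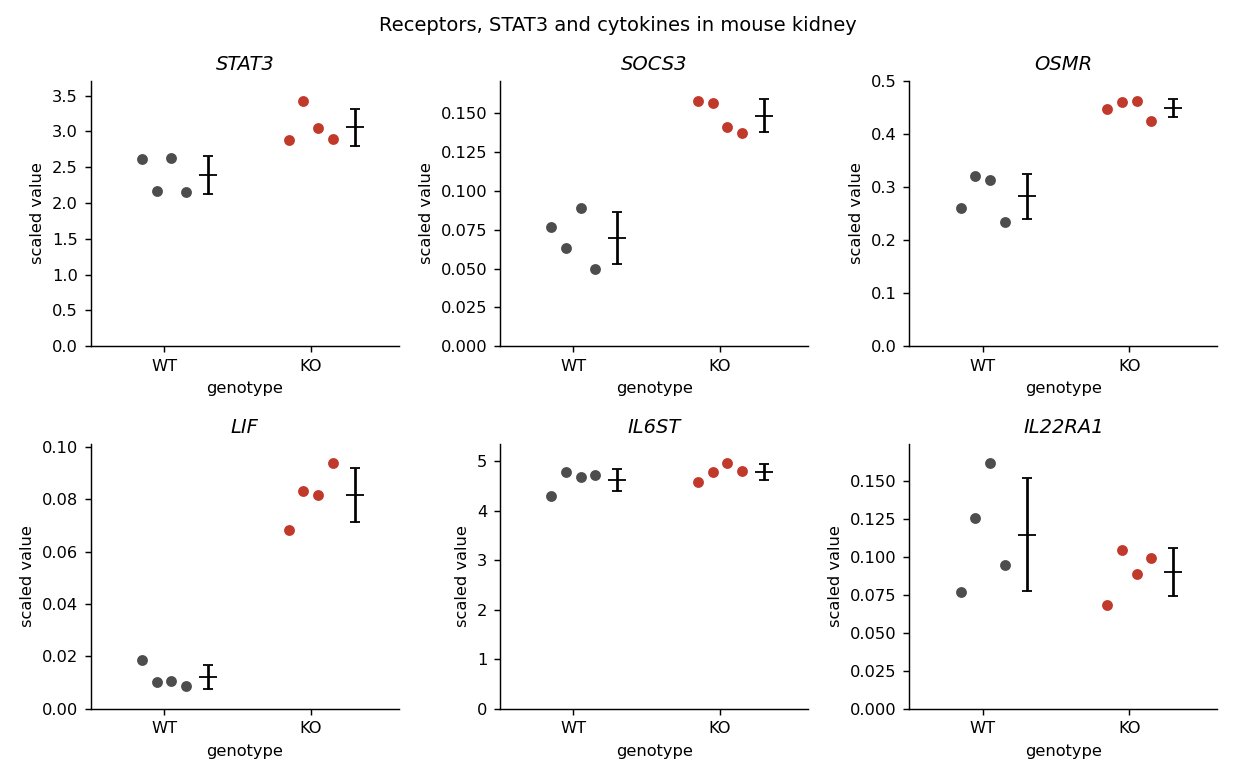
Scaled values (1 is the upper quartile of a library) of 6 members on a linear axis in 4 WT and 4 KO mice; points are animals and the line with bars gives mean and SD. STAT3, SOCS3, OSMR and LIF do not overlap between genotypes, whereas IL6ST and IL22RA1 do.

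Across the members, 4 of the 7 tested in mice passed the threshold (adjusted p under 0.05), all 4 higher in KO, where 9.02% of all symbols tested passed and 6.63% passed as higher. In rats 7 of the 8 tested passed, 6 higher and 1 lower, beside 27.5% of all symbols, 15.2% higher and 12.3% lower. The count was 5 of 8 in rats 17 to 24, all higher, beside 7.26% of all symbols and 5.07% higher. It was 6 of 8 in rats 25 to 32, 5 higher and 1 lower, beside 43.8% of all symbols, 21.8% higher and 22.1% lower. IL24 passed the filter on low values only through the KO rats. The members were picked for this contrast, so these counts describe the choice. Without overlap between genotypes were 4 members in mice, all higher in KO, where 14.2% of all symbols did not overlap and 9.27% did so as higher. In rats 6 members did not overlap, 5 higher and 1 lower, beside 5.84% of all symbols, 3.89% higher and 1.95% lower. The same 6 did not overlap within rats 17 to 24, beside 13.7% of all symbols (7.85% higher, 5.87% lower), and within rats 25 to 32, beside 40.3% (20.4% higher, 19.9% lower).

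**Figure D4:**
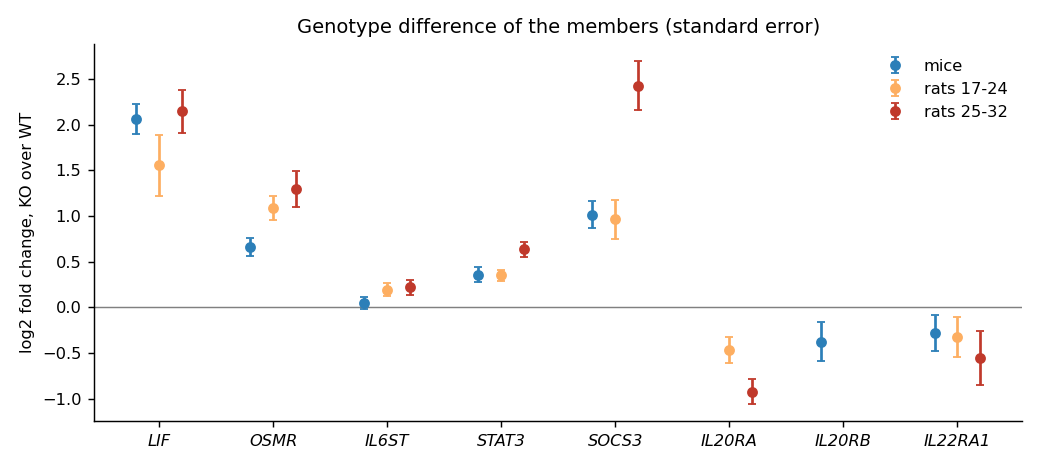
Log2 fold change of KO over WT with its standard error for 8 members in mice, rats 17 to 24 and rats 25 to 32; a member that did not pass the filter in a comparison has no point, and IL24 is left out because its WT level is 0. LIF, OSMR, STAT3 and SOCS3 lie above 0 in all 3 comparisons, and the widest gap between the 2 rat ranges is that of SOCS3 (0.96 against 2.43).

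Between number ranges, 3 of the 8 members passed the threshold in KO rats, beside 47.0% of all 11839 symbols tested and 24.2% called higher. They were IL24, SOCS3 and LIF, all higher in rats 25 to 32, and these calls are a description only. The KO rats of the 2 ranges did not overlap for these 3 members, as for 22.2% of all symbols that were higher in rats 25 to 32. In WT rats IL20RA alone did not overlap between ranges as higher in rats 25 to 32, beside 12.4% of all symbols. In WT rats none of the 7 members with a value passed by edgeR, beside 21.1% of all symbols, and 3 of them had an unadjusted p under 0.05.

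Several cell type markers also differed between the genotypes. Of 7 macrophage markers tested, 6 were higher in KO mice, beside 6.63% of all symbols called higher, and 6 in KO rats, beside 15.2%. The summed level of the 8 macrophage markers was 3.50 to 4.13 in KO and 2.36 to 2.57 in WT mice. In rats it was 137 to 154 CPM in KO and 89.0 to 111 CPM in WT rats 17 to 24, and 267 to 372 CPM in KO and 125 to 153 CPM in WT rats 25 to 32. All 6 T lymphocyte markers were higher in KO rats, beside the same 15.2% (median sum 42.3 CPM, WT 26.8 CPM), whereas none of 6 passed in mice by limma, with 1 at an unadjusted p under 0.05 and none in edgeR or DESeq2.

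Of 6 fibroblast markers, 5 were higher in KO rats and 3 in KO mice, beside 15.2% and 6.63% of all symbols, with summed levels of 324 to 533 CPM in KO and 258 to 297 CPM in WT rats. Of 6 proximal tubule markers in the rat table, 4 were lower in KO rats, beside 12.3% of all symbols called lower, with summed levels of 5971 to 8193 CPM against 9211 to 12885 CPM in WT. In mice 1 of 8 was lower by limma, beside 9.02% of all symbols called. Of the distal tubule and collecting duct markers 2 of 4 were higher in KO rats, and of the thick ascending limb markers 1 of 2, beside 15.2% of all symbols. No marker of these 2 lists passed in mice by limma. The neutrophil gene ELANE was at 0 in all rats, and the summed neutrophil markers reached 2.51 CPM at most in KO and 1.92 CPM in WT rats. The part of these cell types in the levels of IL24, LIF, OSMR and SOCS3 was not tested.

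IL19 and IL20, the genes beside IL24 that use the same receptor, were looked at after their values were seen. IL19 had 8, 2, 1 and 5 reads in KO rats 18, 20, 22 and 24 and 35, 68, 48 and 21 reads in KO rats 26, 28, 30 and 32. In WT rats it had 1 read in rat 17 and 0 in the other 7. Every KO rat of the higher numbers thus had more IL19 reads than every KO rat of the lower numbers. IL19 passed the filter on low values through KO rats 25 to 32, so no test of it is given. IL20 had 1, 5 and 2 reads in KO rats 28, 30 and 32 and 0 in the other 13 rats. IL10, the next gene, had 0 to 3 reads in KO and 0 to 2 in WT rats. In mice IL20 and IL10 had 0 reads in all 8 libraries and IL19 had 3 reads in all.

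Among 14 further ligands of the IL-10 and IL-6 families, 6 were tested in rats and 3 passed, all higher in KO, beside 27.5% of all symbols called and 15.2% higher. Among them were CNTF (log2 difference 1.40, SE 0.19, edgeR adjusted p = 7.90e-05) and CLCF1 (1.12, SE 0.22, edgeR adjusted p = 0.00152). CLCF1 and CNTF both act through CNTFR, LIFR and gp130. The receptor subunit CNTFR was in contrast lower in KO rats by -0.68 (edgeR adjusted p = 0.0347). The median of the 6 ligands was 0.77, against -0.02 over all symbols tested. In rats 17 to 24 it was -0.06 with 2 of 5 ligands higher, beside 5.07% of all symbols, and in rats 25 to 32 it was 1.85 with 7 of 8 higher, beside 21.8%, a count that includes IL19.

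CLCF1 was the ligand that passed in mice, 1 of 3 tested, beside 9.02% of all symbols called and 6.63% higher. Its log2 difference was 1.16 (SE 0.12, limma adjusted p = 4.46e-05). CNTF had 3 to 5 reads in KO mice and 2 to 8 in WT mice and was not tested there. For CLCF1 the KO mice had scaled values of 0.392, 0.413, 0.373 and 0.360 and the WT mice 0.179, 0.157, 0.205 and 0.131. CLCF1 and CNTF also differed between ranges in KO rats, by 1.03 (edgeR adjusted p = 0.000161) and 0.94 (edgeR adjusted p = 5.05e-05). For CNTF the genotype effects of the ranges differed by 0.84 (SE 0.20, edgeR adjusted p = 0.0112). IL6, the founding member of its family, had 2 to 13 reads in KO and 0 to 6 in WT rats and at most 3 in a mouse.

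Of 11 further receptor genes, 9 were tested in each species. In rats 2 of the 9 were higher and 1, CNTFR, was lower, beside 15.2% of all symbols called higher and 12.3% lower. Those higher were IFNLR1, the receptor of type III interferons, by 0.91 (edgeR adjusted p = 0.00304) and IL10RA, a subunit of the IL-10 receptor, by 0.53 (edgeR adjusted p = 0.0186). In mice IL27RA was higher by 0.59 (limma adjusted p = 0.0339), beside 9.02% of all symbols called. Just short of the threshold, IL10RB (-0.27, limma adjusted p = 0.0538), IL11RA (-0.26, limma adjusted p = 0.0550) and CNTFR (-0.42, limma adjusted p = 0.0564) were lower. IL10RA was higher by 0.39 (limma adjusted p = 0.0722). On the recovered reads, edgeR and DESeq2 each called more of these receptor genes than limma did. Their directions and the share of all symbols called by these tools are not listed here. The median of the list was 0.01 in rats and -0.07 in mice, near the 0.01 of all mouse symbols.

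Of 26 genes of the JAK-STAT relay and its inhibitors, 23 were tested in rats and 4 were higher in KO, beside 27.5% of all symbols called and 15.2% higher, among them JAK3 (0.72, edgeR adjusted p = 0.000160) and STAT2 (0.37, edgeR adjusted p = 0.00140). The other 2 carry identical reads in every rat, and their calls are uncertain. In mice none of the 26 passed by limma, edgeR or DESeq2, and 3 had an unadjusted p under 0.05 in limma.

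Of the known STAT3 targets in rats, 12 of 18 tested were higher and none lower, with a median log2 difference of 0.98, beside 27.5% of all symbols called and a median of -0.02. In mice 9 of 23 were higher and none lower, with a median of 0.42, beside 9.02% of all symbols called and a median of 0.01. The largest in rats were LCN2, an iron-binding protein of injured tubules (3.99, SE 0.62, edgeR adjusted p = 0.000210), the fibrinogen chains FGB (2.88, edgeR adjusted p = 2.27e-05) and FGG (2.16, edgeR adjusted p = 0.00121), and the growth regulator MYC (1.91, edgeR adjusted p = 6.08e-06).

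In mice the largest were TIMP1, an inhibitor of matrix proteases (1.36, SE 0.16, limma adjusted p = 0.000136), LCN2 (1.35, SE 0.25, limma adjusted p = 0.00664), NNMT, a nicotinamide methyltransferase (0.74, limma adjusted p = 0.0142), and the transcription factor CEBPB (0.67, limma adjusted p = 0.0295). The fibrinogen genes did not pass in mice, where FGB was at -0.92 (limma adjusted p = 0.0580). Several of these targets also answer to other transcription factors.

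Between the number ranges, 13 of 19 STAT3 targets were higher and 1 was lower in KO rats 25 to 32, beside 47.0% of all symbols called. In WT rats 2 were higher and 2 lower in rats 25 to 32, beside 21.1%. In the test between the genotype effects of the ranges, 9 of 19 passed as higher in rats 25 to 32 and none passed as lower, beside 14.7% of all symbols called and 7.10% as higher. LCN2 was 1.71 higher on the log2 scale in rats 17 to 24 (SE 0.20) and 4.74 in rats 25 to 32 (SE 0.27), a difference of 3.04 (SE 0.38, edgeR adjusted p = 0.000217).

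**Figure D5:**
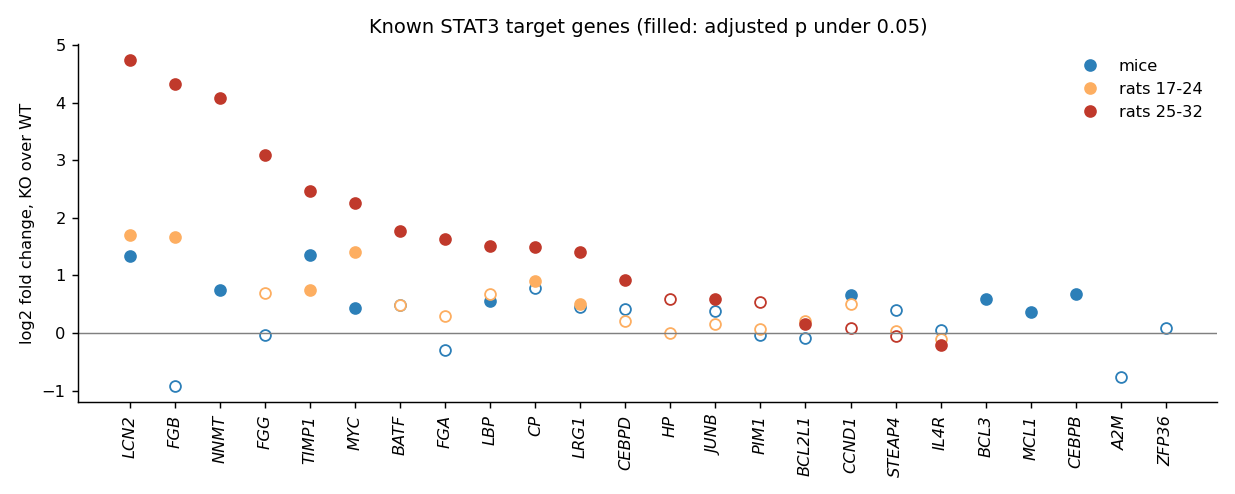
Log2 fold change of KO over WT for 24 known STAT3 target genes in mice, rats 17 to 24 and rats 25 to 32, in the order of the last; filled points passed an adjusted p of 0.05, open points did not, and a gene without a point was not tested or is not in that table. LCN2 leads in rats 25 to 32 (4.74) and is at 1.71 in rats 17 to 24 and 1.35 in mice.

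The symbols whose profile over the 16 rats lay nearest to that of IL24 were LCN2, SPP1, CA3, HAVCR1 and CDKN1A. Nearness was the root mean square difference of centred log2(CPM + 0.1) values over 11583 symbols. It was 0.582 for LCN2, 0.600 for SPP1 (osteopontin), 0.606 for CA3 (a carbonic anhydrase), 0.613 for HAVCR1 (the tubular injury marker KIM-1) and 0.739 for CDKN1A (the cell cycle inhibitor p21), where IL24 itself lay 2.33 from its own mean. The reads of HAVCR1 were not all whole numbers, and its level is uncertain. The choice over all 16 rats fixed that these genes share with IL24 both the genotype split and the difference between the KO rats of the 2 ranges.

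In mice 3 of these 5 genes passed, beside 9.02% of all symbols called and 6.63% called higher. CDKN1A (2.80, limma adjusted p = 1.55e-05), LCN2 and SPP1 (1.05, limma adjusted p = 0.000132) were higher in KO mice, whereas HAVCR1 (-0.13, limma adjusted p = 0.855) and CA3 (-0.73, limma adjusted p = 0.617) did not pass. In KO rats their difference between ranges, which the choice of these genes used, ran from 1.75 for SPP1 to 3.25 for LCN2, and that of IL24 was 3.02. In WT rats the range difference was 1.52 for HAVCR1 and 1.36 for CA3, also on values the choice used.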

How the data were processed

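RNA from kidney cortex was sequenced by the authors after TruSeq Stranded mRNA preparation. The submitters' processing notes name bcl2fastq 2.20, STAR 2.7.3, DESeq2 1.24.0 and R 3.6.1 and the builds mm10 and rn5; the counting tool is not given in the sources used here. The deposited mouse table holds a signal, reads plus 0.5 over the upper quartile of the library, from which reads were recovered (99.0% of values whole within 0.01). The deposited rat table holds estimated counts (97.7% whole), which were rounded.

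Mouse values were tested on log2(value + 0.01) with limma 3.58.1 (trend, robust) for symbols with at least 0.01 in at least 4 mice, and recovered reads with edgeR 4.0.16 and DESeq2 1.42.0 in R 4.3.3. Rat counts were tested with edgeR's quasi-likelihood test after TMM normalization and filterByExpr, with Benjamini-Hochberg adjustment over all symbols and a threshold of 0.05. Rat CPM use TMM library sizes. The floor for IL24 is 3 reads per WT library, which covers counting error only. The scripts were tested on simulated data. Groups were taken from the genotype label. The smallest chi-square per degree of freedom between libraries of a group was 7.96, so no library was counted as a repeat.

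The members and lists were chosen with earlier results of these data known. The text names all members, CTNS, per list and species up to 4 of the largest rises and falls past the threshold, and the 5 symbols nearest to IL24; other genes are said to be chosen later. Some genes that the rule names are not reported here. Alternatives were other pseudocounts, filters, normalizations, tools, and leaving out each animal.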

Additional observations from a re-analysis of the deposited data

How the results depend on the processing

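No paired analysis was made, because the sample numbers are running numbers and it was not known which KO and WT animals shared a litter. In mice 1184 symbols passed the threshold (73.6% of them higher), 751 (609 higher, 142 lower) with a pseudocount of 1 and no filter, and 607 to 1408 when each mouse was left out (610 without KO 5, 607 without KO 6); 61.6% of the DESeq2 calls were higher. In rats 17 to 24 the 843 calls became 504 to 930 when each rat was left out (549 without KO 20, 504 without KO 24, 522 without WT 21), and the 1745 interaction calls became 1010 to 2392 (1135 without KO 22, 1010 without KO 28, 1163 without WT 27). The other counts stayed within 1.5 times. In mice the LIF difference was 0.70 at a pseudocount of 0.1, 0.10 at 1, 2.76 in edgeR and 2.77 in DESeq2, that of SOCS3 0.56 and 0.10 at these pseudocounts, and that of OSMR 0.18 at 1. In rats 17 to 24 LIF did not pass without KO 24 nor SOCS3 without WT 21; IL20RA passed without KO 20. The IL24 bound was at least 29.1-fold over all rats, 6.18-fold in rats 17 to 24 and 53.1-fold in rats 25 to 32 with total reads as library sizes, an alternative added after seeing the data. Within KO rats the range differences of IL24, SOCS3 and LIF kept their direction and call in the alternatives run, with 2.78 to 3.17 for IL24. Among values that did not pass, leaving out a rat took the OSMR range difference in WT rats from -0.168 to 0.0431; the cause was not tested. Depth limits IL11, IL20RB in rats, and IL24 and IL20RA in mice, which had too few reads to compare.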

Other observations

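LIFR and OSM, the partners of members in the IL-6 family, were looked at after their values were seen. Their adjusted p-values do not account for that choice and are given as a description. LIFR, the subunit that binds LIF together with gp130, ran from 20.8 to 116 CPM in KO rats and from 51.5 to 137 CPM in WT rats. It was lower in KO than in WT rats 25 to 32 by -1.16 on the log2 scale (SE 0.33, edgeR adjusted p = 0.0171) and lower in KO rats 25 to 32 than in KO rats 17 to 24 by -1.50 (SE 0.30, edgeR adjusted p = 0.00121). LIF was higher in both of these contrasts. In rats 17 to 24 the LIFR difference was -0.17 and did not pass (edgeR adjusted p = 0.552), and the interaction, -0.99, did not pass either (edgeR adjusted p = 0.113). In mice LIFR stood at 1.91 ± 0.0645 in KO and 2.02 ± 0.198 in WT (SD, n = 4 each) as scaled values.

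OSM, the cytokine that OSMR binds, was at 0.375 ± 0.135 CPM in KO rats and 0.274 ± 0.222 CPM in WT rats (SD, n = 8 each). These levels are low, since 3 reads correspond to 0.0775 to 0.121 CPM in a WT rat library. The OSM differences therefore rest on few reads, and WT rats 25 to 32 had the lowest level. Its genotype effects differed between the ranges by 2.64 (SE 0.67, edgeR adjusted p = 0.0164), with -0.59 in rats 17 to 24 (edgeR adjusted p = 0.400) and 2.05 in rats 25 to 32 (edgeR adjusted p = 0.0148). Among WT rats OSM was lower in rats 25 to 32 by -2.02 (SE 0.52, edgeR adjusted p = 0.00947), whereas among KO rats the range difference was 0.62 (edgeR adjusted p = 0.244).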
